A study of Mus musculus with 4 samples.

Results

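The 7 genes described here encode chemokines and receptors that place lymphocytes within the spleen: the chemokines Ccl19, Cxcl13 and Cxcl12, the chemokine receptors Ccr7, Cxcr5 and Cxcr4, and the sphingosine 1-phosphate (S1P) receptor S1pr1. They were taken by RefSeq accession from 20284 genes matched on the array, and all 7 were found, with 10 probes among them. The tissue was whole spleen of outbred ICR mice, taken 5 days after birth. The pools were male CB-NP, male control, female CB-NP and female control, where CB-NP stands for carbon black nanoparticles, ultrafine particles of nearly pure carbon. Mothers of the CB-NP offspring had received 95 microg/kg of particles by instillation into the nose on each of gestational days 5 and 9. Mothers of the control offspring had received distilled water at 1 mL/kg each time. RNA was pooled for each sex and treatment, and each of the 4 pools was read on 1 single-colour array, so no group was repeated. The labels do not give the number of mice or litters behind a pool.

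Chemokines are small secreted proteins that attract cells bearing the matching G protein-coupled receptor. In the spleen, stromal cells of the T cell zone make Ccl19, which draws Ccr7-bearing T cells and dendritic cells, and stromal and follicular dendritic cells make Cxcl13, which draws Cxcr5-bearing B cells into follicles. Cxcl12 and Cxcr4 retain haematopoietic precursors, neutrophils and plasma cells in their niches, and S1pr1 lets lymphocytes follow S1P out of lymphoid tissue. White pulp is still forming in mouse spleens in the first days after birth.

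The stretch before the transcription start is shown for the 3 ligand genes, because 2 of them were higher in the CB-NP pools and the third was not. The sequences are the 250 bases upstream of the start from RefSeq (build GRCm38.p6), written 5′ to 3′ along the gene. Capitals mark GGGANNNNCC, the outer letters of many NF-kB sites, TATAAA, the TATA box, and GGGCGG, the GC box, each found on either strand.
Ccl19 promoter, chr4:42756366-42756615, - strand: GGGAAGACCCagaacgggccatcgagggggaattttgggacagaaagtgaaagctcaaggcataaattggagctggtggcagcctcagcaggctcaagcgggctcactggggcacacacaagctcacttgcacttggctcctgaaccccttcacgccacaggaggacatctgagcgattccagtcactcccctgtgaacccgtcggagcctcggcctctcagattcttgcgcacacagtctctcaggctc
Cxcl13 promoter, chr5:95956689-95956938, + strand: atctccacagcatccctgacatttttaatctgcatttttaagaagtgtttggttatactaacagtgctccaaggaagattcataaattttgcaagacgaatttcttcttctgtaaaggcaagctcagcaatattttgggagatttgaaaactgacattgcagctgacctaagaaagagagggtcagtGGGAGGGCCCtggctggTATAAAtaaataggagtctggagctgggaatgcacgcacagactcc
Cxcl12 promoter, chr6:117168285-117168534, + strand: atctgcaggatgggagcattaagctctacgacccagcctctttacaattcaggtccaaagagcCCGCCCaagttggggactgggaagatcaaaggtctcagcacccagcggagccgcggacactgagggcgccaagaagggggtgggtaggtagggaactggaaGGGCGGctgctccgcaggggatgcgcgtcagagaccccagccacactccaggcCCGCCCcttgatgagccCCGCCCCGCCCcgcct
The Ccl19 and Cxcl13 promoters each held 1 match to GGGANNNNCC, at 250 and 63 bases before the start, and the Cxcl12 promoter held none. Of 27025 promoters of this length, 17.3% held it. Cxcl13 had TATAAA at 46 bases before the start, a motif that 13% of promoters held. Cxcl12 held 5 matches to GGGCGG, 2 of which overlapped by a base, Ccl19 and Cxcl13 held none, and 32.9% of promoters held at least 1. The Cxcl13 stretch was 42.0% G or C with 2 CpG, against 58.4% with 9 CpG for Ccl19 and 64.4% with 14 CpG for Cxcl12 (median of all promoters 52.0%). The Cxcr4 promoter (61.2% G or C) held 3 matches to GGGCGG and 2 to TATAAA, which overlapped on opposite strands, and none to GGGANNNNCC. No promoter entry was used for Ccr7, Cxcr5 and S1pr1. Of other motifs scanned, CCAAT (34.5% of promoters) had 1 match in Ccl19 and none in Cxcl13, Cxcl12 or Cxcr4. CACCC (51.3%) had 2 in Cxcl12, 1 in Cxcr4 and none in Ccl19 or Cxcl13. GGAAGT (20.0%) and ATGCAAAT (1.61%) had none in any of them. The motifs were chosen after the values were seen, and a link between motifs and differences was not tested. A match is a run of letters and not a bound site.

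All 4 arrays lay on 1 slide, and position on the slide cannot be told apart from group. Between 57.29% and 59.01% of non-control spots were well above background, and no spot was saturated. Levels below are log2 processed signals minus the 75th percentile of the same array, so a level of 0 is that percentile. All 10 member probes were well above background in all 4 pools, with processed signals of at least 448 units. For each of these probes the scanner error of a log2 difference was 0.20, which covers reading of the spots and not the spread between animals or pools. The only view of that spread was the pair of pools of 1 treatment, which differ in sex. The sex-linked check genes Xist, Ddx3y, Eif2s3y and Uty were well above background in the pools of the expected sex and in no other.

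The comparison of CB-NP with control offspring asked which spleen transcript levels differed after maternal exposure. Of the 7 genes, 5 were higher in the CB-NP pool of both sexes: Cxcr5, S1pr1, Ccr7, Ccl19 and Cxcl13. For these, both CB-NP pools lay above both control pools, as they did for 21.8% of the 13936 genes detected on all arrays. Cxcl12 and Cxcr4 had both CB-NP pools below both control pools, by margins inside the scanner error, beside 32.7% of all genes. That placement held for both genes under none of the 5 other scalings and background corrections. The median difference of the 7 was 0.47 in males and 0.52 in females on the log2 scale, beside -0.02 and -0.04 over all genes. In a bulk RNA pool, more cells of a type and more RNA per cell cannot be told apart. The plot of levels shows the 7 genes pool by pool.

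**Figure D1:**
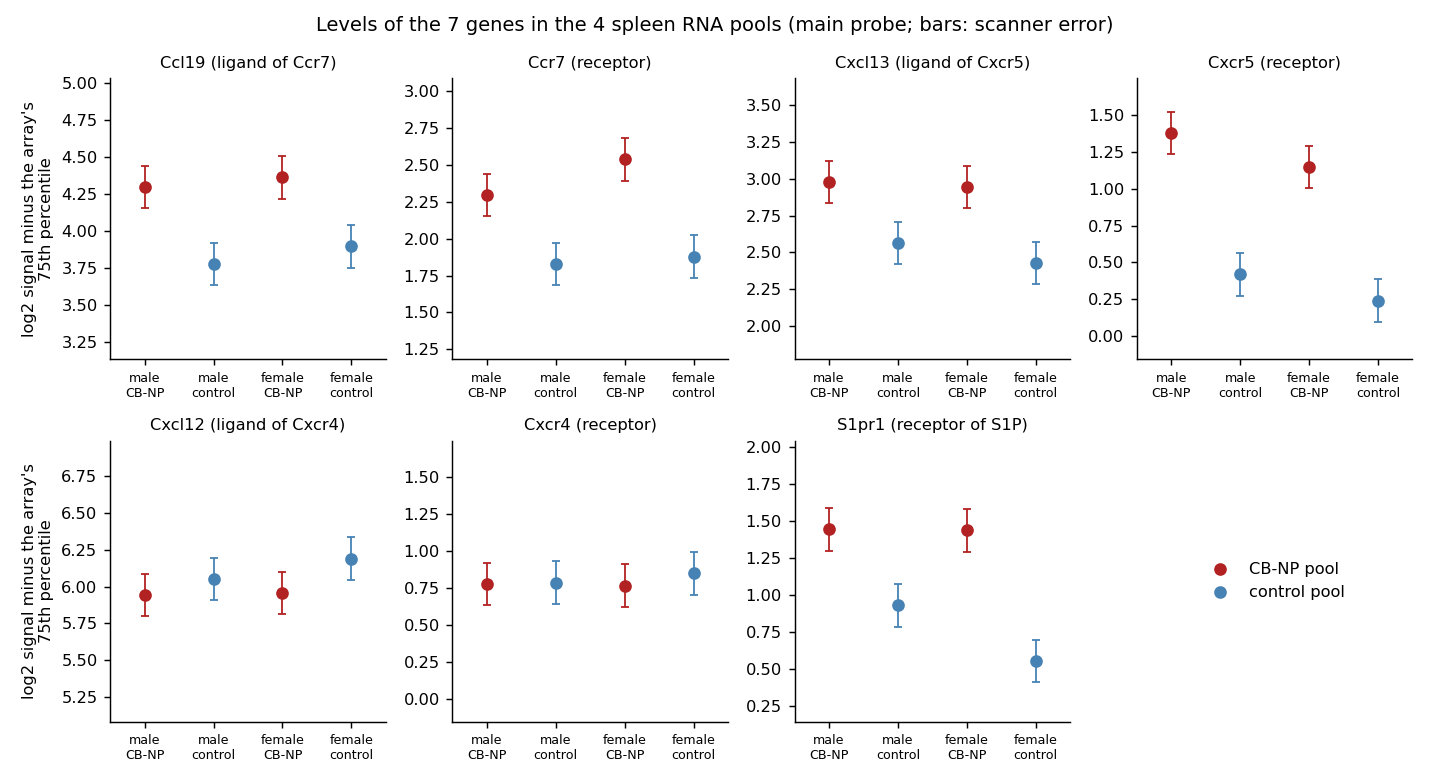
Level of each gene (log2 processed signal minus the array's 75th percentile, main probe) in the 4 pools, with bars for the scanner error of 1 array. Every panel spans the same number of log2 units. The CB-NP pools lie above both control pools for Ccl19, Ccr7, Cxcl13, Cxcr5 and S1pr1, and all pools lie close together for Cxcl12 and Cxcr4.

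Ccl19 (chromosome 4) had a level of 4.30 in the male CB-NP pool, against 3.78 in the male control, and of 4.36 in the female CB-NP pool, against 3.89 in the female control. The treatments did not overlap, and the lower CB-NP pool stood 0.40 above the higher control pool, while the sexes differed by 0.07 among CB-NP pools and by 0.12 among control pools (female minus male). The difference was 0.52 in males (1.43-fold) and 0.47 in females (1.38-fold). Of the other probes of Ccl19, 1 gave 0.46 in males and 0.36 in females, and the other gave 0.39 in males and 0.43 in females. All 3 probes thus placed the CB-NP pools above the control pools. RefSeq names 3 pseudogenes of Ccl19 on chromosome 4, none with a matched probe, and RNA from such copies cannot be told apart here. Before scaling, the processed signals were 6680 units in the male CB-NP pool and 4590 in the male control, and 6520 in the female CB-NP pool and 5830 in the female control. The 75th percentile of the whole array was 340 units for male CB-NP and 335 for male control, and 317 for female CB-NP and 392 for female control, so the scaling moved the female pair more than the male pair.

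Cxcl13 (chromosome 5), the B cell attractant, had a level of 2.98 in the male CB-NP pool, against 2.56 in the male control, and of 2.94 in the female CB-NP pool, against 2.43 in the female control. Its difference was 0.42 in males (1.33-fold) and 0.52 in females (1.43-fold). The lower CB-NP pool stood 0.38 above the higher control pool. The sexes differed by -0.03 among CB-NP pools and by -0.14 among control pools. Cxcl13 had a single probe.

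Cxcl12 (chromosome 6) went the other way by a small amount. Its level was 5.94 in the male CB-NP pool, against 6.05 in the male control, and 5.96 in the female CB-NP pool, against 6.19 in the female control. The difference was -0.11 in males, within the scanner error, and -0.23 in females, just over it. A second probe, assigned to another transcript of Cxcl12 (NM_021704, where the main probe is assigned to NM_001012477), gave -0.06 in males and -0.27 in females. The sign of the male difference depended on the scaling, since it ran from -0.11 to 0.01 over the alternatives, whereas the female difference ran from -0.34 to -0.12.

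Among the 4 receptors, Cxcr5 (chromosome 9), which mature B cells and follicular helper T cells carry, had the largest difference in males and, with S1pr1, in females, where the order of those 2 turned with quantile normalization (S1pr1 0.93, Cxcr5 0.92). Its level was 1.38 in the male CB-NP pool, against 0.42 in the male control, and 1.15 in the female CB-NP pool, against 0.24 in the female control. That is 1.94-fold in males (log2 difference 0.96) and 1.87-fold in females (0.91). The lower CB-NP pool stood 0.73 above the higher control pool, and the female pool was lower than the male pool of the same treatment by a smaller amount (-0.23 with CB-NP, -0.18 in controls). Among all genes, 0.43% had a larger difference in males and 0.995% in females.

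S1pr1 (chromosome 3) had a level of 1.45 in the male CB-NP pool, against 0.93 in the male control, and of 1.44 in the female CB-NP pool, against 0.56 in the female control. The CB-NP pools of the sexes were 0.01 apart, whereas the female control was 0.38 below the male control. The difference was accordingly 0.51 in males (1.43-fold) and 0.88 in females (1.85-fold). The female minus male difference in effect was 0.37, with a scanner error of 0.29, and could not be tested with 1 pool per group. Of all genes, 1.12% had a larger female difference and 3.57% a larger male difference.

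Ccr7 (chromosome 11), which guides T cells and dendritic cells to the T cell zone, had a level of 2.30 in the male CB-NP pool, against 1.83 in the male control, and of 2.54 in the female CB-NP pool, against 1.88 in the female control. Its difference was 0.47 in males (1.38-fold) and 0.66 in females (1.58-fold). The lower CB-NP pool stood 0.42 above the higher control pool. The sexes differed by 0.24 among CB-NP pools and by 0.05 among control pools.

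Cxcr4 (chromosome 1) was level across the pools. It stood at 0.78 in the male CB-NP pool, against 0.79 in the male control, and at 0.77 in the female CB-NP pool, against 0.85 in the female control. Its 4 levels spanned 0.09, less than the scanner error of 0.20. The differences were -0.01 in males and -0.09 in females, and their sign changed between scalings.

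**Figure D2:**
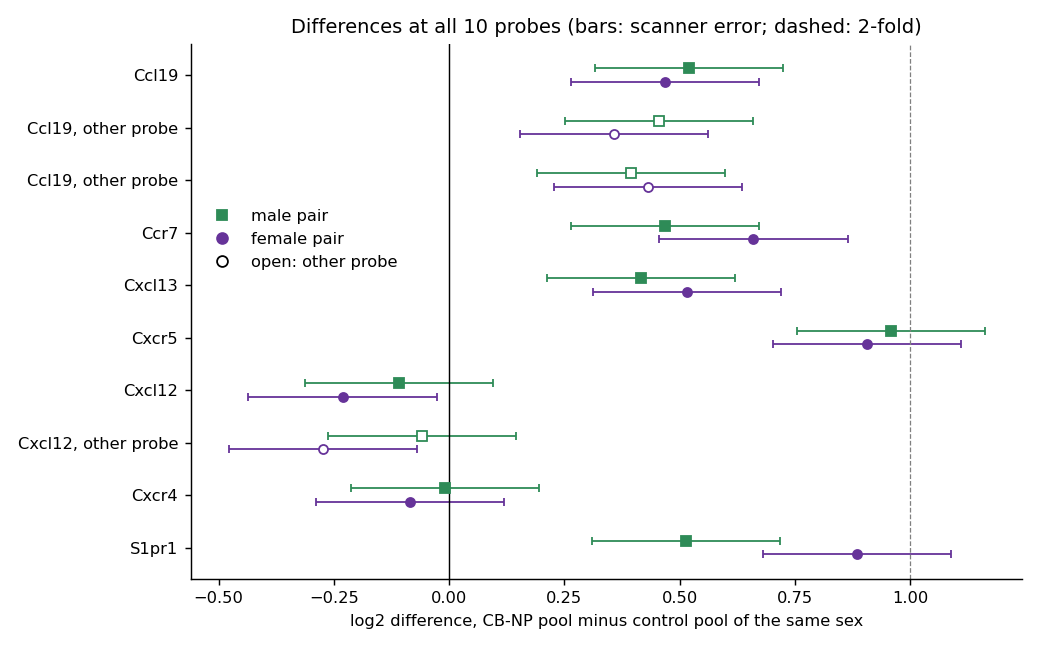
Log2 difference, CB-NP pool minus control pool of the same sex (x axis), for all 10 probes of the 7 genes, with the scanner error as bars. Filled symbols are main probes and open symbols other probes. The bars of Ccl19, Ccr7, Cxcl13, Cxcr5 and S1pr1 stay above 0 in both sexes, and no main probe reaches the 2-fold line.

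None of the 7 genes was at least 2-fold higher in either sex, beside 0.352% of all genes in males and 0.661% in females. With the authors' scaling 1 was, in both sexes (Cxcr5, with log2 differences of 1.02 in males and 1.002 in females). At least 1.5-fold higher were 1 of 7 in males (Cxcr5), beside 2.57% of all genes, and 3 of 7 in females (Cxcr5, S1pr1 and Ccr7), beside 4.38%. Above 0 in both sexes were 5 of 7, beside 27.8% of genes detected on all arrays. Cxcr5 alone was at least 1.5-fold higher in both sexes, beside 0.861% of genes detected on all arrays. Between the unexposed pools (female minus male) the 7 genes differed by -0.38 to 0.14, with a median of 0.05, and none was 1.5-fold apart, beside 4.06% of all genes. The scatter of the male and female differences places the 7 genes among all others. No array was used in both comparisons.

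**Figure D3:**
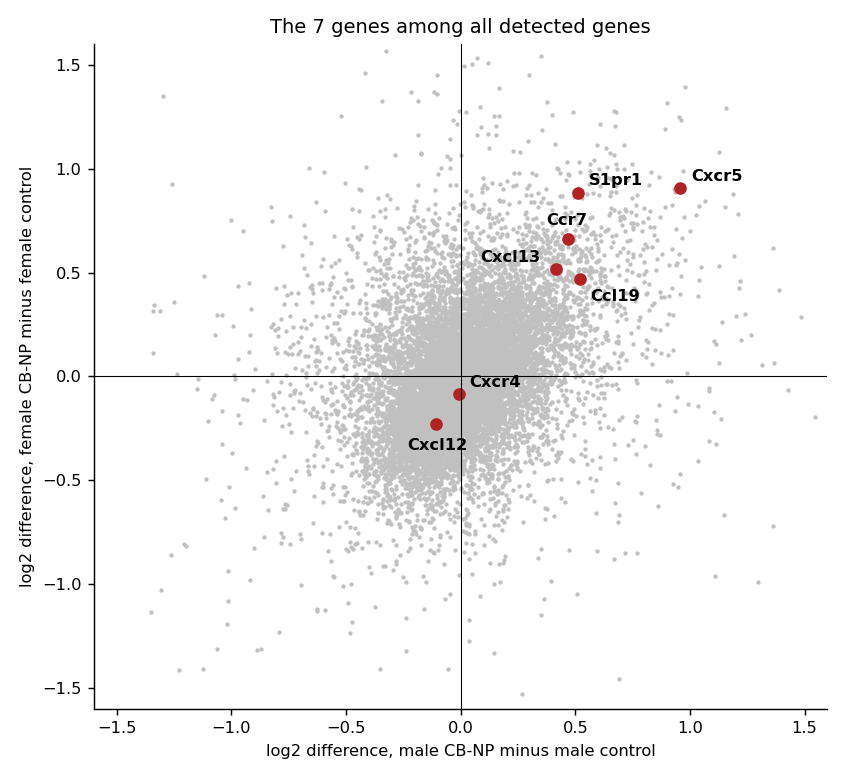
Log2 difference in males (x axis) against females (y axis), CB-NP minus control, for genes well above background on all 4 arrays (grey) and the 7 genes (red). The axes end at 1.6, which leaves 49 of 13936 genes outside. Cxcr5, S1pr1, Ccr7, Cxcl13 and Ccl19 lie at the upper right and Cxcl12 and Cxcr4 near the origin.

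A limma model of all 4 pools, with treatment and sex as terms and 1 residual degree of freedom, tested the treatment difference. Across 14503 genes, Benjamini-Hochberg adjustment at 0.05 called 0.0138% of genes higher and 0.069% lower with CB-NP, and none of the 7. Cxcr5 had a log2 difference of 0.93 (SE 0.09, adjusted p 0.276, higher in 2 of 2 pairs). S1pr1 had 0.70 (SE 0.13), Ccr7 0.56 (SE 0.10), Ccl19 0.49 (SE 0.09) and Cxcl13 0.47 (SE 0.09), each with an adjusted p of 0.31 by limma and each higher in 2 of 2 pairs. Cxcl12 had -0.17 (SE 0.09, adjusted p 0.449) and Cxcr4 -0.05 (SE 0.09, adjusted p 0.803). At an unadjusted p under 0.05 stood 5 of the 7, beside 13.8% of all genes. An exact two-sided permutation of 2 pools against 2 cannot give a p below 0.333.

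The call depended on the settings. With an intensity trend, and with normexp background correction, the adjusted p passed 0.05 for 5 of the 7 genes. Of all 14503 genes, limma then called 227 higher and 153 lower with the trend, and 359 higher and 253 lower with normexp. With the trend the limma adjusted p was 0.00255 for Cxcr5, 0.0124 for Ccl19, 0.0174 for Ccr7, 0.019 for S1pr1 and 0.0232 for Cxcl13. With normexp the fit gave each of the 7 genes the same standard error of 0.127. The limma adjusted p was then 2.02e-08 for Cxcr5 and 0.0258 for Cxcl13. With median centring, where that common error was 0.218, Cxcr5 alone of the 7 passed (0.00341). Of all genes, 171 were called higher and 173 lower with median centring. In both settings 1 variance was shared by all genes, so a gene's own spread did not enter these p-values. Over the alternatives the limma adjusted p reached 0.705 for each of the 5 higher genes, with no detection filter, and was lowest at 2.02e-08 for Cxcr5, 0.000201 for S1pr1, 0.0020 for Ccr7, 0.0124 for Ccl19 and 0.0232 for Cxcl13.

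Set beside each other, ligand and receptor gave close values in the Ccl19 and Ccr7 pair. The difference of the receptor minus that of the ligand was -0.05 in males and 0.19 in females, within its scanner error of 0.29. In the Cxcl13 and Cxcr5 pair the receptor exceeded its ligand by 0.54 in males and by 0.39 in females, both larger than that error. In the Cxcl12 and Cxcr4 pair the values were 0.10 in males and 0.15 in females, within the error.

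Markers of the cells that carry these genes were read beside them. The 11 B cell markers had medians of 0.68 in males and 0.72 in females, with 11 of 11 above 0 in males and 10 of 11 in females, beside 45.2% and 43.3% of all genes. Their summed level, taken here and below over the genes of a list detected on all arrays, was 6.83 to 6.96 in CB-NP pools and 6.14 to 6.23 in control pools. The IgE receptor gene Fcer2a of B cells differed by 0.95 in males and 0.92 in females, near the 0.96 and 0.91 of Cxcr5. Cd22, an inhibitory receptor of B cells, gave 0.02 and -0.22. The part of B cell number in the Cxcr5 difference was not tested.

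The T cell markers had a median of 0.13 in males, with 9 of 11 above 0, beside 45.2% of all genes. In females their median was 0.58, with 12 of 12 above 0, beside 43.3%. Their summed level was 4.86 in the male and 5.22 in the female CB-NP pool, against 4.80 and 4.79 in the control pools of the same sexes. Ccr7 (0.47 in males and 0.66 in females) and S1pr1 (0.51 and 0.88), which T cells and B cells both carry, were above the T cell median in both sexes. Beside the B cell medians of 0.68 in males and 0.72 in females, Ccr7 was lower in both sexes. S1pr1 was lower than the B cell median in males and higher in females. Of the T cell receptor complex, Cd3e was at -0.05 in males and 0.59 in females, Cd3d at 0.10 and 0.30, and Cd3g at 0.30 and 0.73. Cd247, a dim gene of the same complex, was at 0.47 and 0.97, and at -0.02 and 0.40 with normexp. The part of T cell number in these differences was not tested.

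The list of splenic stroma and endothelium had medians of 0.04 in males and 0.10 in females over 19 genes. It was not limited to the cells that make the 3 ligands, so its median does not describe those cells. Their part in the ligand differences was not tested. Tlx1, a transcription factor needed for spleen formation, was detected in all pools, with differences of -0.08 and -0.05. Collagen and smooth muscle genes lay near 0, as with Col3a1 (0.03 and 0.16) and Acta2 (-0.12 and -0.11). Mfge8, which follicular dendritic cells and macrophages make, was at 0.68 in males and 1.02 in females, and no other gene of the 19 was 1.5-fold different in either sex. In females the endothelial receptor gene Kdr was at 0.41 (-0.10 in males) and the transcription factor genes Nkx2-3 at 0.33 (0.06 in males) and Tcf21 at -0.42 (0.13 in males). Cr2, the complement receptor of B cells and follicular dendritic cells, was at 0.59 and 0.68 at its main probe, and another of its probes gave 0.46 and -0.91.

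Neutrophils and their precursors carry Cxcr4. The 10 neutrophil markers had a median of 0.08 in males, with 9 of 10 above 0, beside 45.2% of all genes. In females their median was -0.45, with 0 of 10 above 0, beside 43.3%. Their summed level was 10.46 in the male and 10.23 in the female CB-NP pool, against 10.39 and 10.46 in the control pools. Dendritic cell markers had medians of 0.08 and -0.13, with Xcr1 and Ly75 not well above background in any pool. Red pulp macrophage and erythroid markers had medians of -0.05 and 0.01. Acinar enzyme genes of the pancreas, the neighbouring organ, were lower with CB-NP at 6 of the 7 detected genes in the male pair and at 7 of 7 in the female pair. Pnlip and Cpb1 of this list were not well above background in any pool. The summed level of the 7 was 0.84 in both CB-NP pools, against 3.90 in the male control and 3.48 in the female control. Cela1 was the highest of the 7 in both CB-NP pools, and differed by 0.21 in males and -0.59 in females. Ctrl differed by -0.29 and -0.22. The others ran from -2.47 (Cel) to -6.15 (Ctrb1) in males and from -3.14 (Cel) to -4.65 (Ctrb1) in females. Of the 12 genes of this list tested, limma called 4 lower (Prss1, Try4, Try5 and Amy2a5), beside 0.069% of all genes. These were well above background on 2 arrays only, those of the control pools, and were not among the 7 summed. They entered the model through the pools where they were high, so only a lower call was possible. The part of pancreatic RNA in the differences of the 7 genes was not tested.

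The array held 20 other chemokine and receptor genes of a list that mixed homeostatic with inflammatory ones, such as Cxcl10 and Cxcr3. Of these, 15 were detected in each pair, with medians of 0.26 in males and 0.21 in females. Above 0 were 12 in males and 11 in females, beside 45.2% and 43.3% of all genes. Both CB-NP pools lay above both control pools for 8 of 15 and below them for 1, beside 21.8% and 32.7% of all genes. Ccr6, a receptor for Ccl20 on B cells, was at least 1.5-fold higher in both sexes. Its level was 2.51 in the male CB-NP pool, against 1.74 in the male control, and 2.41 in the female CB-NP pool, against 1.54 in the female control. Ackr2, a scavenger receptor for inflammatory chemokines, was the other such gene, with differences of 0.69 in males and 0.79 in females. Ccl20 itself, Ccl28, Ackr4 and Xcr1 were not well above background in any pool, and Ccl21a, the other ligand of Ccr7, was not matched to a probe. Ackr3, the scavenger receptor for Cxcl12, gave 0.05 in males and -0.54 in females.

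The other genes of the S1P axis had medians of 0.08 in males and -0.05 in females over 14 genes, and both CB-NP pools lay above both control pools for 3 of 14 and below for 3, beside 21.8% and 32.7% of all genes. S1pr3, another S1P receptor, was at 0.55 and 0.62. The other S1P receptors differed from it, with S1pr2 at 0.61 and -0.04, S1pr4 at 0.12 and 0.01, and S1pr5 at 0.40 and -0.98. S1pr2 and S1pr5 were dim. With normexp S1pr2 gave 0.23 in males and 0.09 in females, and S1pr5 gave 0.06 and -0.23. Klf2, a transcription factor that activates S1pr1 in T cells, was at 0.53 and 0.37. The kinase gene Sphk1, which makes S1P, was at -0.08 and -0.22, and the lyase gene Sgpl1, which breaks it down, at 0.09 and -0.07. Mfsd2b, the S1P exporter of red cells and platelets, was at -0.01 and 0.17, and another of its probes gave -0.13 and -0.39.

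Of the oxysterol axis, which guides B cells through the receptor Gpr183, 3 of 4 genes were detected in each pair. Gpr183 differed by 0.63 in males and 0.22 in females, though its levels, -2.37 and -2.34 in the male and female CB-NP pools, against -3.0 and -2.55 in the control pools, were well below the 75th percentile. Cyp7b1, which makes the ligand, gave 0.59 and 0.55, and Hsd3b7, which degrades it, 0.11 and -0.03. With normexp the differences of Gpr183 were 0.26 and 0.25, and those of Cyp7b1 0.29 and 0.42. Values as dim as these therefore depended on the background correction.

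Homing adhesion molecules had medians of 0.20 in males and 0.02 in females over 14 genes. Of these, 11 were above 0 in males and 7 in females, beside 45.2% and 43.3% of all genes. Both CB-NP pools lay above both control pools for 6 of 14 and below for 2, beside 21.8% and 32.7% of genes detected on all arrays. Madcam1, an addressin of the marginal sinus, gave 0.52 and 0.98 at its main probe and 0.43 and 0.16 at another. Integrin beta 7, Itgb7, was at 0.42 and 0.50 and integrin alpha 6, Itga6, at 0.45 and 0.46. Vcam1 (0.02 and -0.05) and Itga4 (-0.11 and -0.05), which bind each other, lay near 0, though another probe of Itga4 gave -0.16 and 0.35. Genes of signalling below chemokine receptors had medians of 0.09 and -0.11 over 27 genes. None of these passed 1.5-fold at its main probe, as with the actin regulator Coro1a (0.42 and 0.22) and the arrestin Arrb1 (-0.10 and -0.14). Other probes did for Gna13, a G protein subunit (-0.59 and -0.42 at 1 probe, -0.18 and -0.62 at another), and for Dock2, a Rac activator (0.30 and 0.71). Of the 74 genes of these 5 lists tested, limma called 0, and 16 had an unadjusted p under 0.05, beside 13.8% of all genes.

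**Figure D4:**
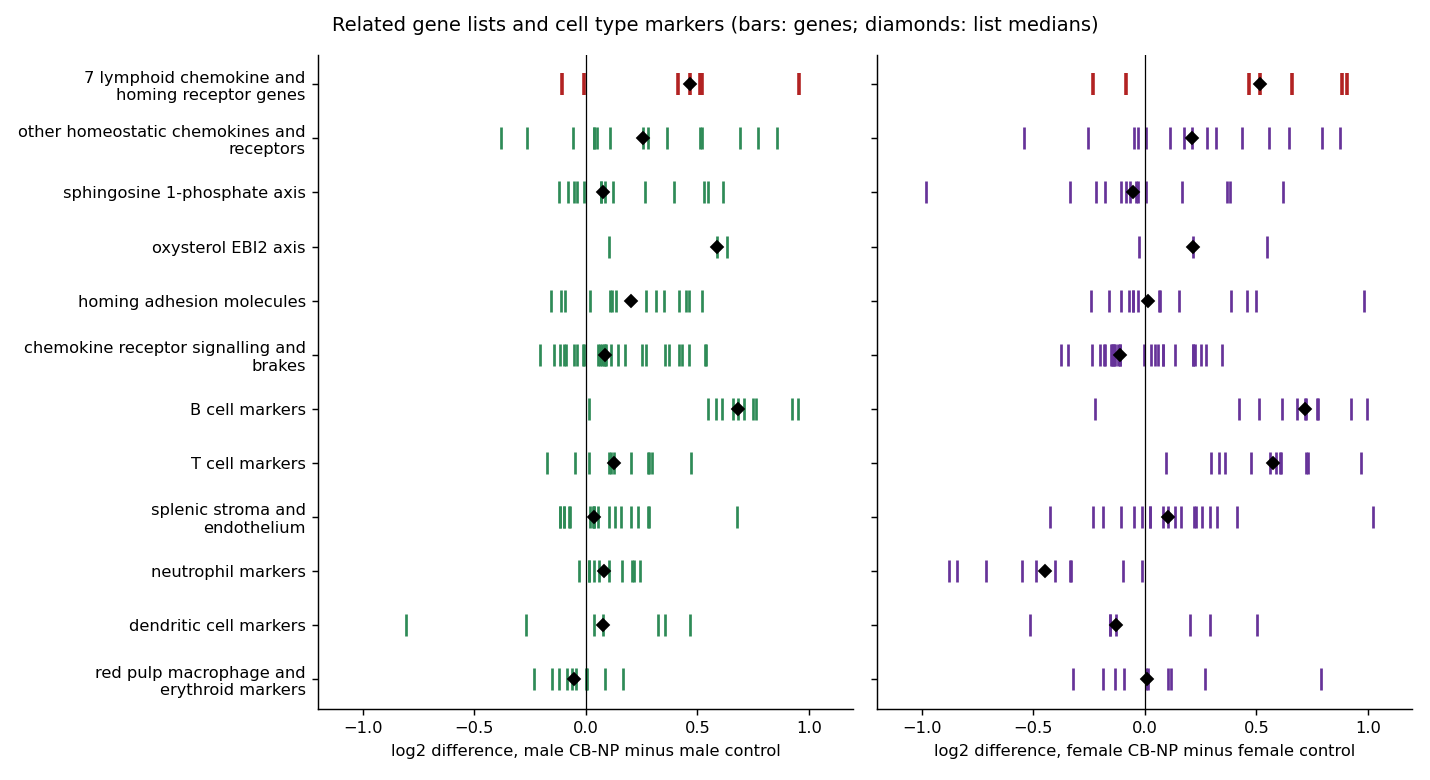
Log2 difference of each detected gene (bars) and list median (diamonds) for the 7 genes, related lists and cell type markers, CB-NP minus control, males left and females right. The B cell markers have the highest median in both sexes (0.68 in males and 0.72 in females), and all T cell markers lie above 0 in females.

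The genes whose levels ran most like each member over the 4 pools were found by the Euclidean distance between mean-centred log2 profiles, among 13460 genes with a symbol. Likeness over 4 pools describes these arrays only. For Cxcr5 they were Foxd2os (distance 0.11), Ppp1r16b (0.11) and Endou (0.14). For Cxcl13 they were Gramd3 (0.01), Cpne5 (0.02) and Ralgps2 (0.02). For Ccr7 they were Prr3, Nod2 and Ephx1 (0.04 to 0.05), for Ccl19 Ahrr, Atg16l2 and Lurap1l (0.04 to 0.05), and for S1pr1 Ahdc1, Il34 and Fmo2 (0.04 to 0.08). Cxcl12 and Cxcr4 spanned under 0.5 and had no such search. No member was among the 3 nearest genes of another.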

How the data were processed

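The 4 pools were hybridised to 1-colour arrays of design 028005 (build mm9) and quantified in Agilent Feature Extraction, version 10.10.1.1, per the file headers. The processed signal deposited by the authors is an intensity on a linear scale, with background subtraction and detrending done array by array and no normalization between arrays, per the file headers. Spot and background medians, also deposited, are intensities, and other deposited values are flags of 0 or 1. The authors' value table is the same intensity times 1 constant per array (3.183 for male CB-NP, 3.101 for male control, 3.488 for female CB-NP and 2.645 for female control), with medians of 76.1, 75.2, 79.4 and 68.9 in that order and no stated target.

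Non-control spots were set to log2 and centred on each array's 75th percentile. Spots flagged as outliers were left out. RefSeq accessions tied 26762 of 55681 probes to 20284 genes, each represented by its brightest probe (assembly GRCm38.p6, for names, chromosomes and promoters only). A gene entered a pair when well above background on both arrays, and the limma model when so on at least 2. The scaling, background correction, filters and model terms were varied. The limma step was also run on simulated data. The scan gave a median-pixel signal, used with normexp (offset 50). Precision is limited by the number of arrays.

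The 7 members, the lists and the tests were chosen with earlier results of these data known. Named by rule were the members, list genes at least 1.5-fold different one way in both sexes (otherwise the 2 brightest) and the 3 nearest profiles. Other list genes were named after their values were seen, and so was the choice of promoter motifs. Tables were made in Python 3.11.15 (pandas 2.3.3, numpy 2.4.6), figures in matplotlib 3.10.9 and models in limma 3.58.1 under R 4.3.3.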

Additional observations from a re-analysis of the deposited data

Results flagged for a closer look

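Some values ran opposite ways in the sexes (CB-NP minus control, log2), and with 1 pool per group none of these differences between the sexes was tested. Neutrophil markers had a median of 0.0801 in males and -0.446 in females. Dendritic cell markers had 0.0751 and -0.131, red pulp macrophage and erythroid markers -0.0535 and 0.0086, the sphingosine 1-phosphate axis 0.0772 and -0.0529, and chemokine receptor signalling genes 0.0863 and -0.112. Of the genes named by rule, Mfsd2b gave -0.0083 and 0.166, Hsd3b7 0.106 and -0.0265, and Vcam1 0.0182 and -0.053. All these gene values lay inside the scanner error of 0.20 for a difference. None of the 7 members ran opposite ways in the sexes at its main probe and scaling.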

How the results depend on the processing

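The same 5 genes, Cxcr5, S1pr1, Ccr7, Ccl19 and Cxcl13, had both CB-NP pools above both control pools under all 5 scalings and background corrections. Their limma differences ran from 0.42 (Cxcl13 with normexp) to 1.01 (Cxcr5 with the authors' scaling). Cxcr4 turned to 0.029 with the authors' scaling. Members with both CB-NP pools below both control pools numbered 2, then 1 with median centring, quantile normalization, the authors' scaling and normexp, and 0 with cyclic loess. At least 2-fold higher were 0 members, but 1 in each sex with the authors' scaling. At least 1.5-fold higher in females were 3 members, against 2 with median centring and with normexp, 4 with cyclic loess and the authors' scaling, and 5 with quantile normalization. Limma called 0 members, 1 with median centring and 5 with normexp or an intensity trend. Of all genes, limma called 2 higher and 10 lower, but 171 and 173 with median centring, 359 and 253 with normexp and 227 and 153 with the trend. It called 0 and 3 with quantile normalization and with cyclic loess (1976 and 1968 at an unadjusted p under 0.05), 0 and 2 with the authors' scaling (2147), and 0 and 0 with detection on all 4 arrays (2113) or no filter (1363). Counts of genes at least 2-fold higher and lower were 50 and 72 in males (normexp 11 and 24, no filter 430 and 669) and 93 and 61 in females (normexp 20 and 30, no filter 650 and 455, authors' scaling 140 higher). At 1.5-fold they were 364 and 284 in males (normexp 114 and 72, no filter 1067 and 1309). In females they were 616 and 353 (normexp 200 and 159, no filter 1571 and 1087, median centring 366 and 639, authors' scaling 913 and 219). Median centring moved the female median of all genes by -0.11. The cause of these shifts was not tested. The model pairs the pools by sex, and without the sex term limma called 2 genes higher, 7 lower and 0 members. Leaving out a pool leaves the model with both terms no residual degree of freedom.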
